A study of Danio rerio with 3 samples.

Results

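Circadian clock genes were described in laser-captured cartilage of wild-type zebrafish larvae at 6 days post-fertilization (dpf). The set was defined by gene symbol and was chosen with earlier results of these data known. It holds every row of the count table whose symbol names a period, cryptochrome, clock, npas2, arntl, nr1d, rora or rorb, bhlhe40 or bhlhe41, PAR bZIP (dbp, tef, hlf), nfil3, casein kinase 1 delta or epsilon, timeless or nampt gene, and a few related rows. This gave 42 of 14417 rows. The symbols ciart, rorb and nr1d4a were not matched to a row. The tissue was labelled as cartilage of the occipital cranial base with the perichondrium left out, cut by laser from sections of untreated larvae kept at 28.5°C. The RNA was amplified for 1 round and sequenced. There were 3 independent samples, here libraries 1, 3 and 6 as they are numbered in the labels. With a single condition there was no contrast to test. Each library's normalized read count is given, with the mean ± SD over n = 3 libraries where a spread is described. The number of larvae in each sample, the time of day of collection and the light schedule are not given in the sources used here.

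The vertebrate clock is a feedback loop of transcription. Clock or Npas2 proteins pair with Arntl (Bmal) proteins and switch on genes that carry E-box elements, among them the per, nr1d, dbp and bhlhe4 genes, and Per and Cry proteins then shut this activator down. Another loop runs through RORE elements, which Nr1d proteins repress and Ror proteins activate, and which drive arntl, clock, npas2 and nfil3 genes, as worked out mainly in the mouse. Because of this wiring, E-box genes and RORE genes peak at opposite times of day. In zebrafish the cells of most tissues sense light themselves, and light directly induces per2, cry1a, tefa and the photolyase gene cry5. In mouse cartilage a clock also runs in the chondrocytes.

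The total count was 25604897, 21290328 and 18920027 in libraries 1, 3 and 6, and the clock genes held 34511, 28845 and 35848 of these reads. A large part of each total fell on the row AC024175.4. Without that row 10502351, 9855389 and 12355434 counts remained, the most in library 6. After TMM normalization 1 read was worth 0.965, 1.102 and 0.947 normalized counts in libraries 1, 3 and 6. Cartilage markers, such as the collagen genes col2a1a and col9a2, were abundant in each library, and all 19 chondrocyte genes that were found reached 10 normalized counts in all libraries. The sum of these 19 genes was 1.60-fold apart between libraries. For 8 of them the highest library was over 2 times the lowest, against 73.4% of all rows with a mean of at least 10. The widest was col10a1a, listed as col10a1, with 1627, 574 and 7069 normalized counts in libraries 1, 3 and 6. Markers of other tissues also differed between libraries. The 12 perichondrium and bone genes summed to 198720, 6361 and 11998.5 normalized counts in libraries 1, 3 and 6, with sp7 at 0 reads in library 1. The collagen I gene col1a1b alone had 91710, 435 and 1864. Of the 12 genes, 8 were highest in library 1, 1 in library 3 and 3 in library 6, runx2b among the last with 606, 492 and 1439. Whether these values reflect perichondrium, which the label leaves out, was not tested. The 6 epidermis genes summed to 39199, 5348 and 5376 in the same order, and cldne had 0 reads in libraries 3 and 6. The 6 photoreceptor and pineal genes summed to 2671, 59.5 and 157, with gnat1 and aanat2 at 0 reads in library 3. Lens crystallin genes, a list of 8 chosen after their values were seen, summed to 8696, 18.7 and 139. The 11 nerve genes summed to 5518, 10084 and 9805, with plp1a at 0 reads in library 1. Of these, 7 were lowest in library 1 and 4 (gfap, mbpa, snap25b and vamp2) in library 3. Library 3 was lowest in muscle and blood. The 11 muscle genes summed to 9784, 4421 and 17241 normalized counts, with 7 lowest in library 3, and the 8 blood genes to 37217, 5346 and 38592, with 7 lowest in library 3. Since these are bulk samples, fewer cells of a type and less RNA per cell cannot be told apart.

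**Figure D1:**
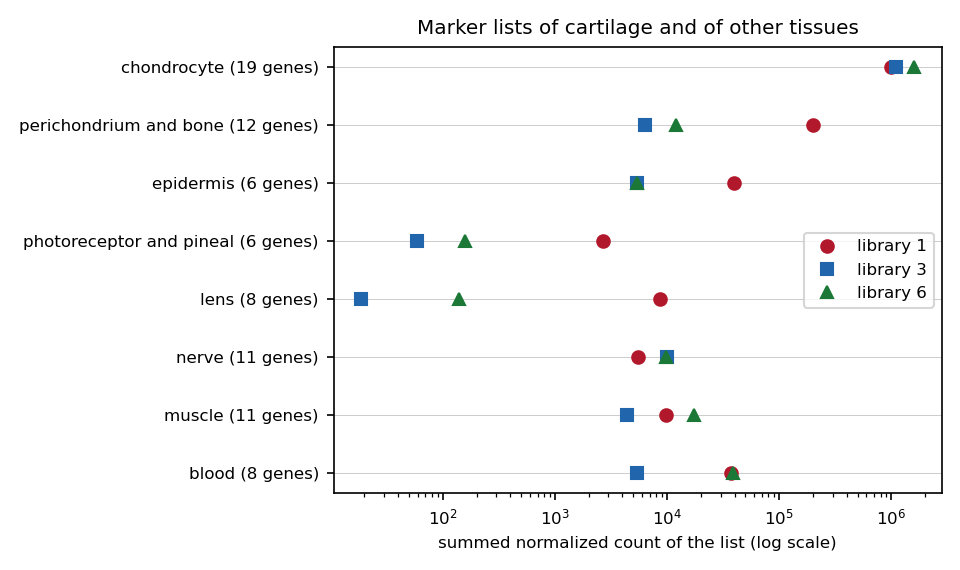
Summed normalized counts (log scale) of marker lists for cartilage and for other tissues in libraries 1, 3 and 6, with the number of genes found. Library 1 lies furthest right for perichondrium and bone, epidermis, photoreceptor and lens lists, and furthest left for the summed nerve list, whereas library 3 lies furthest left for muscle and blood.

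Most of the clock was counted in every library. Of the 42 genes, 35 reached 10 normalized counts in every library, against 67.8% of all rows of the table. The 7 others were arntl1a, arntl1b, npas2, cry4, nr1d4b, csnk1e and nampta. Summed over the 42 genes, the level was 33311, 31773 and 33943 normalized counts in libraries 1, 3 and 6. The median of the genes' mean counts was 321, against 109.7 over all rows. These counts are not corrected for transcript length, so they do not rank the genes by transcript number.

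The clock genes spread less between libraries than the table as a whole. Where the mean normalized count was 10 or more, the highest library was over 2 times the lowest for 22 of 41 clock genes (53.7%) and for 73.4% of all 13166 such rows. It was over 5 times the lowest for 10 clock genes (24.4%), against 37.8% of all such rows. A ratio of at most 1.5 was found for 10 of 41 clock genes (24.4%), against 11.2% of all such rows. The median SD of log2 (normalized count + 1) between libraries was 0.58 for the clock genes and 0.91 for all such rows. Abundant genes spread less, and the clock genes are more abundant than most. Where the mean count was 200 or more, 9 of 26 clock genes (34.6%) were over 2-fold apart, against 53.3% of 5145 rows. Abundance was not matched above that limit, and its part in the lower spread was not tested. Spread from amplification, dissection and the larvae themselves cannot be told apart in this design.

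**Figure D2:**
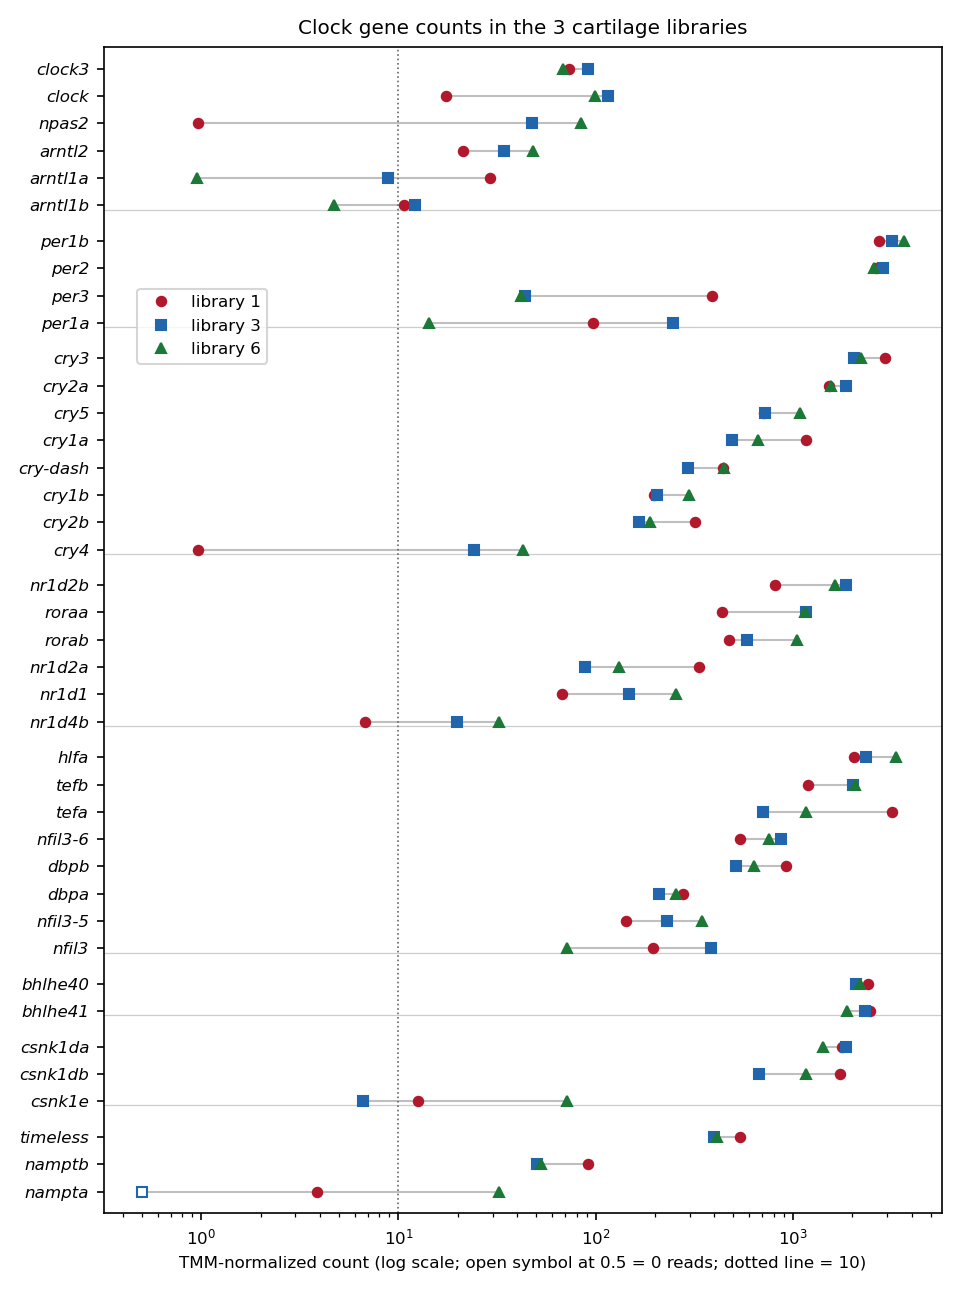
Normalized counts (log scale) of 40 clock genes in libraries 1, 3 and 6, grouped by role, with a dotted line at 10. The symbols of per1b, per2, bhlhe40 and bhlhe41 nearly coincide, whereas npas2 and cry4 sit near 1 in library 1 only, and nampta had 0 reads in library 3.

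**Figure D3:**
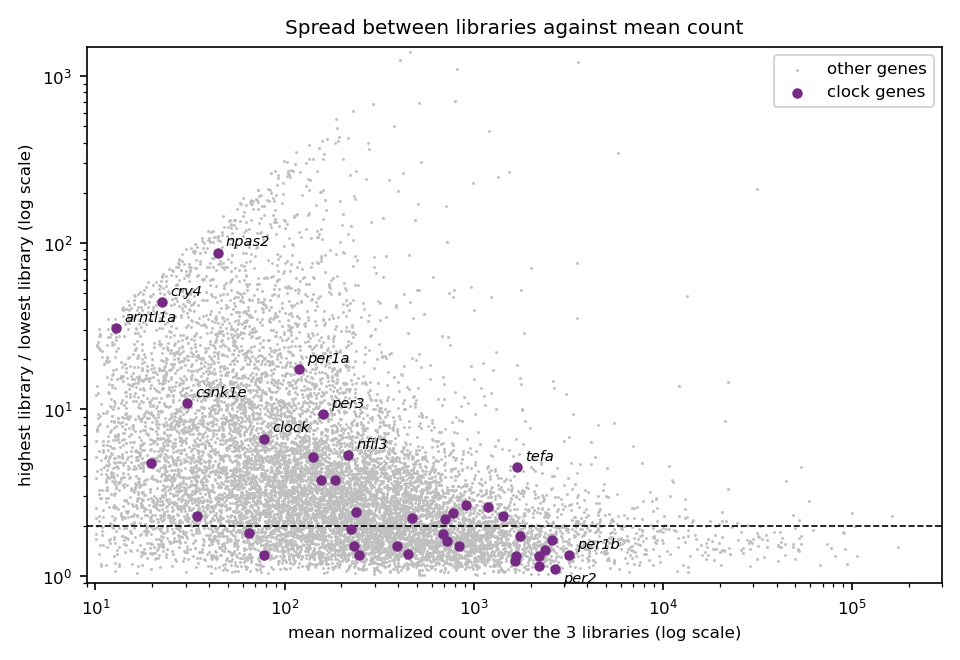
Highest library divided by lowest library, against the mean normalized count (both log scales) for clock genes and other genes with a mean of at least 10; genes with 0 reads in a library are not drawn. The dashed line marks 2-fold, and per2 lies at 1.1 while npas2 lies at 87.3.

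The activators of the loop had low counts, and some of them were far apart between libraries. The zebrafish clocka gene, listed as clock, had 17.4, 116 and 99.4 normalized counts in libraries 1, 3 and 6. Its copy clockb, listed as clock3, had 73.4, 91.4 and 68.2, or 77.7 ± 12.2, and was within 1.34-fold across the libraries. The gene npas2, whose protein can take the place of Clock and in the mouse is prominent in the forebrain, had 1, 43 and 89 reads, or 0.965, 47.4 and 84.3 normalized counts. Under TMM, library 1 was thus low for clock and npas2 but not for clock3. With total-count and upper-quartile scaling library 1 was lowest for clock3 too, with the libraries 1.31-fold and 1.39-fold apart. The ratio of library 6 to library 1 was 87.3 for npas2 (95% counting interval 15.3 to 3487) and 5.72 for clock (3.45 to 10.0). The summed nerve markers were also lowest in library 1, with 7 of 11 genes lowest there, and their part in these values was not tested. Of all rows with a mean of at least 10, 38.3% were lowest in library 1.

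The arntl genes encode the partners of Clock. For arntl1a, the reads were 30, 8 and 1 in libraries 1, 3 and 6, or 29.0, 8.81 and 0.947 normalized counts. Its order across libraries was the reverse of that of npas2. The ratio of library 1 to library 6 was 30.6, with a counting interval from 5.08 to 1248. The copy arntl1b had 10.6, 12.1 and 4.73 normalized counts, a mean of 9.16 ± 3.90, and was the only clock gene with a mean under 10. The gene arntl2 had 21.2, 34.1 and 48.3 normalized counts, and its libraries were 2.27-fold apart. Summed over the 6 activator genes, the level was 153, 309.5 and 306 in libraries 1, 3 and 6.

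The period genes encode repressors of the loop and fell into a steady pair and a variable pair. The gene per1b, a direct E-box target whose transcript is known to cycle strongly in zebrafish larvae, had 2748, 3177 and 3658 normalized counts in libraries 1, 3 and 6 (3194 ± 455). The light-induced per2 had 2629, 2851 and 2592 (2690.5 ± 140.01), the narrowest spread of the 41 clock genes with a mean of at least 10 under TMM. The highest and lowest libraries differed by 1.33-fold for per1b and 1.1-fold for per2, and by 1.84-fold and 1.36-fold with total-count scaling. By contrast, per3 had 391, 44.1 and 41.7 normalized counts in libraries 1, 3 and 6. Libraries 3 and 6 were alike for per3, and the ratio of library 1 to library 6 was 9.38 (6.86 to 13.1). The mean of per3 was 159 over the 3 libraries and 42.9 without library 1. The gene per1a followed neither pattern, with 97.5, 247 and 14.2 normalized counts, and was 17.4-fold higher in library 3 than in library 6 (10.3 to 31.6). Without library 3 its mean was 55.8 in place of 119. Reads of per1a and per1b, which are copies of the same ancestral gene, may have been split between them in counting. The sum of both was 2846, 3423 and 3672 normalized counts, within 1.29-fold. The share of per1a in this sum was 3.43%, 7.21% and 0.387% in libraries 1, 3 and 6. The sum therefore follows per1b and does not bear on the spread of per1a.

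Cryptochromes fall into repressors of the clock and relatives that repair DNA or do neither. Zebrafish cry1a, cry1b, cry2a and cry2b encode repressors of Clock and Arntl; current zebrafish nomenclature calls the last pair cry3a and cry3b, and the row cry3 is now cry2. The light-induced cry1a had 1172, 490.2 and 663 normalized counts in libraries 1, 3 and 6. It was highest in library 1, as were the eye and skin markers, whose part was not tested. The copy cry1b had 197, 205 and 297, and here library 6 was highest. For cry2a the libraries were close, with 1526, 1859 and 1555 normalized counts (1647 ± 185, a ratio of 1.22). The gene cry2b had 318, 166 and 189, within 1.91-fold. The row cry3, whose protein did not repress the loop in zebrafish cell assays, had 2919.8, 2047 and 2217 normalized counts, within 1.43-fold.

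The light-induced (6-4) photolyase gene cry5 had 717, 719 and 1088 normalized counts in libraries 1, 3 and 6, within 1.52-fold. The cry-dash gene, whose protein repairs single-stranded DNA, had 444, 294 and 445, within 1.51-fold. The exception among the 8 cryptochrome and photolyase genes was cry4. It had 1 read in library 1, 22 in library 3 and 45 in library 6, or 0.965, 24.2 and 42.6 normalized counts. The ratio of library 6 to library 1 was 44.1, with a counting interval from 7.53 to 1782. Under TMM, cry1a and cry4 were the members of these 8 over 2-fold apart. Total-count scaling added cry1b and cry5, at 2.08-fold and 2.09-fold, and cry2b reached 2.04-fold when the row AC024175.4 was left out of the totals.

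All 6 nuclear receptor genes were over 2-fold apart, as were 73.4% of all rows with a mean of at least 10. The exception was rorab, 1.91-fold apart in total-count scaling without AC024175.4. The row AC024175.4 holds 59.0%, 53.7% and 34.7% of the reads of libraries 1, 3 and 6. These 6 receptor genes did not share a direction. The repressor genes nr1d1, nr1d2b and nr1d4b were lowest in library 1. For nr1d1, the Rev-erb alpha gene, the normalized counts were 67.6, 148 and 255 in libraries 1, 3 and 6. For nr1d2b they were 813, 1864 and 1628, and for nr1d4b 6.76, 19.8 and 32.2. The copy nr1d2a had the opposite order, with 333, 88.1 and 132. It was 3.78-fold apart, as far as nr1d1 at 3.77-fold. The sum of nr1d2a and nr1d2b was 1146, 1952 and 1759, within 1.70-fold. The ror genes encode the activators that compete with Nr1d proteins. They were lowest in library 1 too, at 437, 1161 and 1148 for roraa and 475, 587 and 1047 for rorab.

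The PAR bZIP genes are clock outputs whose proteins bind D-box elements, and nfil3 proteins compete for the same elements. The gene hlfa had 2052, 2362 and 3342 normalized counts in libraries 1, 3 and 6 (2585 ± 674). For dbpa they were 278, 209 and 256, and for dbpb 918, 516 and 638. Library 1 was highest for dbpb, whereas for dbpa the highest was library 1 under TMM and library 6 under total-count and upper-quartile scaling. For tefb the values were 1197, 2021 and 2065. These 4 genes were within 2-fold under TMM, and hlfa and tefb were 2.247-fold and 2.38-fold apart with total-count scaling. The light-induced tefa was not, with 3187, 709 and 1168 normalized counts in libraries 1, 3 and 6. Its order matched that of cry1a, and its mean was 939 without library 1 and 1688 with it.

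Of the nfil3 genes, nfil3-6 had 538, 871 and 761 normalized counts and was within 1.62-fold. The gene nfil3-5 had 143, 230.2 and 347, highest in library 6. The gene nfil3 had 195, 383 and 72.0, lowest in library 6, and library 3 was 5.33-fold above library 6 (4.15 to 6.92). So these 3 genes had no common order. The bhlhe4 genes encode Dec proteins, E-box repressors that are themselves E-box targets. They were close to level, at 2393, 2085 and 2203 normalized counts for bhlhe40 (2227 ± 155) and 2455, 2321 and 1875 for bhlhe41 (2217 ± 304).

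Casein kinase 1 phosphorylates Per proteins and so sets the speed of the loop in mammals. The gene csnk1da had 1766, 1863 and 1420.3 normalized counts in libraries 1, 3 and 6, within 1.31-fold. Its copy csnk1db had 1741, 675 and 1167, with library 3 lowest. The epsilon kinase gene csnk1e had 13, 6 and 76 reads, or 12.5, 6.61 and 72.0 normalized counts. Library 6 was therefore 10.9-fold above library 3 for csnk1e (4.78 to 30.6).

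The remaining genes lie at the edge of the clock. The gene timeless, named after a fly clock gene but known in vertebrates mainly for replication fork stability, had 542, 399 and 415 normalized counts, within 1.36-fold. The nampt genes encode the rate-limiting enzyme of NAD salvage, a clock output in the mouse. The normalized counts of namptb were 91.7, 50.7 and 53.0. Its copy nampta had 4 reads in library 1, 0 in library 3 and 34 in library 6, or 32.2 normalized counts in library 6. With 0 reads found, up to 3 reads are possible, or 3.30 normalized counts in library 3, so at its measured count in library 6 nampta was at least 9.74-fold higher there than in library 3. Counting error in the 34 reads is not part of this limit, and with it the ratio of library 3 to library 6 was between 0 and 0.133. This limit and the intervals above cover counting error only, because amplified reads are not independent molecules.

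To see which libraries were alike, each pair was compared over the 41 clock genes with a mean of at least 10. By the number of clock genes over 2-fold apart, libraries 3 and 6 were the closest pair. Between them 6 clock genes (14.6%) were over 2-fold apart, against 46.4% of all rows. Of these, 3 were higher in library 6 than in library 3 (24.8% of all rows), csnk1e and nampta among them, and arntl1a, nfil3 and per1a were lower (21.6% of all rows). Between libraries 3 and 1, 16 clock genes (39.0%) were over 2-fold apart, against 54.4% of all rows. In library 3, 9 were higher and 7 lower than in library 1, against 27.6% and 26.8% of all rows. Between libraries 6 and 1 there were 19 (46.3%), against 52.7% of all rows. In library 6, 13 were higher and 6 lower than in library 1, against 27.9% and 24.9% of all rows. Where the mean was 200 or more, the numbers were 1 of 26 between libraries 6 and 3, 6 of 26 between 3 and 1 and 6 of 26 between 6 and 1, against 27.9%, 34.4% and 32.6% of all rows. The split by direction depended on scaling. With total-count scaling, which moves library 6 up by 0.46 against library 1 and by 0.39 against library 3 (log2), 10 genes were higher and 3 lower in library 6 than in library 3, against 33.7% and 14.9% of all rows. Between library 6 and library 1, 18 were higher and 3 lower in library 6 with that scaling, against 38.2% and 17.8% of all rows. Libraries 3 and 6 also differed in muscle and blood markers, whose part in these counts was not tested.

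The genes far apart between library 1 and both other libraries went in both directions. Over 2-fold higher in library 1 than in libraries 3 and 6 were arntl1a, nr1d2a, per3 and tefa. Over 2-fold lower in library 1 than in both were clock, cry4, npas2, nr1d1, nr1d2b, nr1d4b and roraa. The share of all rows that met both calls was not computed. For single pairs, 26.8% and 24.9% of all rows were over 2-fold higher in library 1 than in libraries 3 and 6. Over 2-fold lower in library 1 were 27.6% and 27.9% of all rows. These single-pair calls are looser, so their shares are no baseline for genes that met both calls. Of these 11 clock genes, 3 depended on the scaling for library 6 against library 1. The ratio of nr1d2b was 2.003 under TMM, 1.94 with DESeq2 size factors and 1.74 with total-count scaling without AC024175.4, and with total-count scaling the ratios of nr1d2a and tefa were 0.545 and 0.506. Library 1 was also the library with the highest perichondrium and bone, epidermis, photoreceptor and lens markers and the lowest summed nerve markers, as given above. The part of those tissues in the clock gene values was not tested.

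Clock phase was examined through the opposing arms. Libraries taken at opposite phases would differ in opposite directions in E-box genes and in RORE genes. Libraries on the rising and falling sides of a peak could differ in phase and still look alike in both arms. The E-box arm held 11 genes whose mean was 10 or more (per1a, per1b, per3, nr1d1, nr1d2a, nr1d2b, nr1d4b, dbpa, dbpb, bhlhe40 and bhlhe41). The RORE arm held 8 (arntl1a, arntl2, clock, clock3, npas2, nfil3, nfil3-5 and nfil3-6). Each gene's log2 (normalized count + 1) was centred on its mean over libraries and averaged over the arm. The E-box arm stood at 0.13, 0.013 and -0.14 in libraries 1, 3 and 6, so its mean hardly moved. The RORE arm stood at -0.60, 0.53 and 0.070. The E-box minus RORE score was 0.73, -0.51 and -0.21 in libraries 1, 3 and 6, an SD of 0.65.

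**Figure D4:**
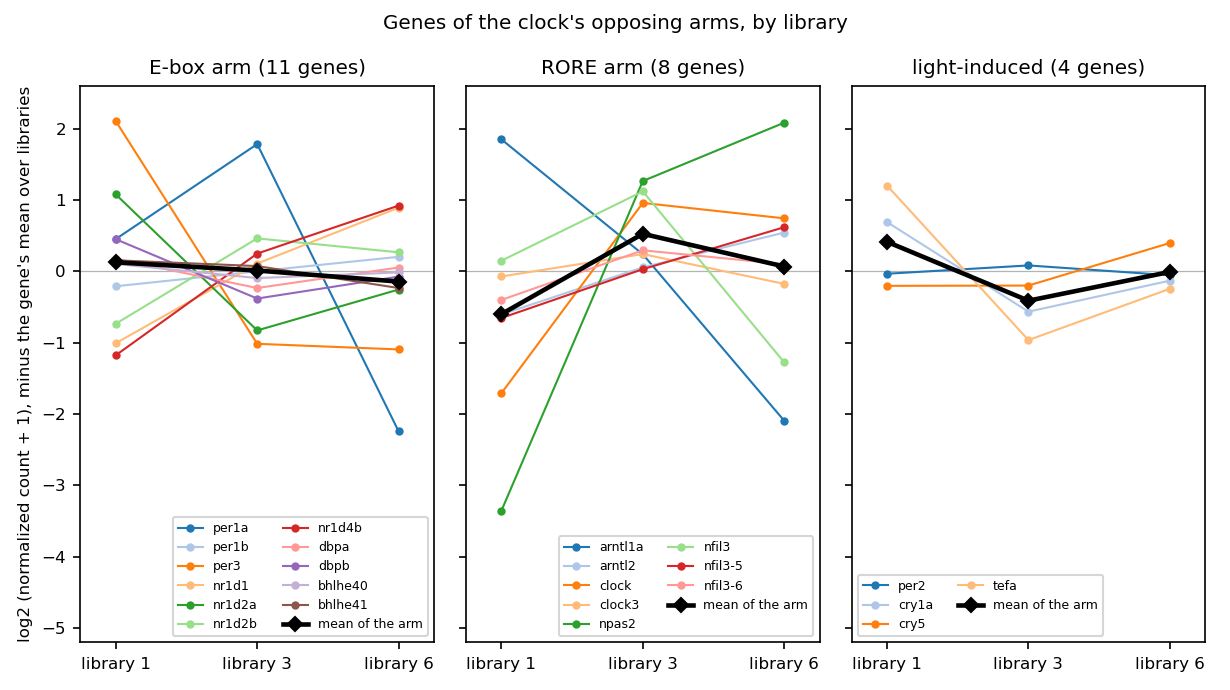
Centred log2 (normalized count + 1) in libraries 1, 3 and 6 for the genes of the E-box arm, the RORE arm and the light-induced genes (coloured lines) with the mean of each arm (black diamonds). The E-box mean is nearly flat, at 0.13 in library 1 and -0.14 in library 6, while single genes cross in both directions.

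The score of library 6 minus library 3 was 0.30 over all arm genes, the smallest difference of the 3 pairs. Of the 11 E-box genes, 10 were within 2-fold between them, per1a being the exception, and of the 8 RORE genes 6 were, nfil3 and arntl1a being lower in library 6. Of all rows with a mean of at least 10, 7052 of 13166 were within 2-fold between these libraries. In library 6, 7 E-box genes were higher and 4 lower than in library 3, and 3 RORE genes were higher and 5 lower, against 51.3% of all rows higher. With total-count scaling 10 E-box genes were higher and 1 lower, and 5 RORE genes were higher and 3 lower, against 63.9% of all rows higher. The value rested in part on single genes. It was 0.69 without per1a, chosen after seeing the data, and 0.036 with library 1 left out, where arntl1a falls under the minimum mean. With any 1 arm gene left out it was from 0.026 to 0.69. It was 0.56 without npas2 and clock and 0.73 with only arm genes of a mean of at least 200, alternatives also chosen after seeing the data. At that mean the RORE arm held only 3 genes, nfil3, nfil3-5 and nfil3-6, and no arntl, clock or npas2 gene. With the abundant genes of both arms, libraries 6 and 1 were the closest pair, at -0.072. Which libraries looked alike by this score thus depended on the genes used.

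The mean of the RORE arm was lowest in library 1. The score of library 3 minus library 1 was -1.24 and that of library 6 minus library 1 was -0.94. Of the RORE genes, 7 of 8 were higher in library 3 than in library 1, against 50.7% of all rows. In library 6, 5 of 8 were higher and 3 lower than in library 1, near the 51.5% of all rows that were higher. Of these, 4 were over 2-fold higher and 2 over 2-fold lower, against 27.9% and 24.9% of all rows. The E-box genes divided, with 5 higher and 6 lower in library 3 and 4 higher and 7 lower in library 6 than in library 1. With total-count scaling 7 E-box genes were higher and 4 lower in library 6 than in library 1, against 63.8% of all rows higher, so the direction of this arm rests on the scaling, whereas the score does not. Much of the difference came from clock and npas2. Without these, an alternative chosen after seeing the data, the score was -0.40 for library 3 minus library 1 and 0.16 for library 6 minus library 1. Both lay further below the other libraries in library 1 than any other RORE gene, so leaving them out could only raise the score. With any 1 arm gene left out, the score was from -1.63 to -0.74 for library 3 minus library 1. For library 6 minus library 1 it was then from -1.60 to -0.26. With only arm genes of a mean of at least 200, also chosen afterwards, it was -0.80 and -0.072. That choice leaves nfil3, nfil3-5 and nfil3-6 as the whole RORE arm. An opposite shift of the whole of both arms was not seen in these libraries, while the 6 E-box genes with a mean of at least 200 ranged between 1.15-fold apart for bhlhe40 and 2.29-fold for nr1d2b. With no time of collection and no reference time course, the phase itself was not measured. A small difference in score therefore does not show that libraries share a phase.

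The light-induced genes gave a mixed picture. Of the 4 genes, per2 was level and cry5 was highest in library 6, whereas cry1a and tefa were highest in library 1 and lowest in library 3. The mean of the centred values was 0.42, -0.41 and -0.0063 in libraries 1, 3 and 6. Of 8 light-linked and DNA repair genes outside the set, 4 were over 2-fold apart, against 73.4% of all rows with a mean of at least 10. Under TMM, 6 of these 8 were highest in library 1, 1 in library 3 and 1 in library 6, against 35.4%, 32.6% and 32.0% of all such rows. The pair xpc and ddb2 was picked after their values were seen. The damage recognition gene xpc had 2625, 2438 and 1989 normalized counts in libraries 1, 3 and 6, whereas ddb2, whose protein also senses ultraviolet damage, had 679, 138 and 284.

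Sums of duplicated genes, and of the related genes bhlhe40 and bhlhe41, were compared with the single genes. The sum of bhlhe40 and bhlhe41 was within 1.19-fold, that of cry2a and cry2b within 1.16-fold, that of csnk1da and csnk1db within 1.38-fold and that of tefa and tefb within 1.61-fold. The last of these and the cry2 sum were closer than either copy, whereas bhlhe40 alone was within 1.15-fold and csnk1da alone within 1.31-fold, closer than their sums. The share of tefa in the tef sum was 72.7%, 26.0% and 36.1% in libraries 1, 3 and 6. The sums of clock with clock3 and of roraa with rorab were 2.28-fold and 2.41-fold apart. The arntl1a and arntl1b sum was 39.6, 20.9 and 5.68 normalized counts, 6.97-fold apart. Whether the counting split reads between such copies was not tested.

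Other genes of the pathway were taken from lists of light-linked, regulatory and output genes. Of 44 names, 34 had a row and 32 reached a mean of 10. Of the 32, 18 (56.3%) were over 2-fold apart, against 53.7% of the clock genes and 73.4% of all rows with that mean. The least variable were sfpq, a repressor partner of Per complexes in the mouse, with 2137, 1898 and 2060.3 normalized counts, cdkn1a, the p21 cell cycle inhibitor, with 693, 714 and 815, and neil1, a base excision repair gene, with 1388, 1278 and 1059.5. The most variable were pfkfb3, a glycolysis regulator, with 0, 82.6 and 23.7, tph2, the neuronal serotonin synthesis gene, with 22.2, 197 and 111, and polh, a translesion polymerase gene, with 11.6, 33.0 and 3.79. For tph2, library 1 was lowest, as it was for npas2 and for 7 of the 11 nerve markers. The output gene aanat2, the pineal and retinal melatonin synthesis gene, had 6.76, 0 and 6.63 normalized counts.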

How the data were processed

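Cartilage of the cranial base was captured by laser from wild-type larvae in 3 samples. RNA was amplified for 1 round and sequenced. The authors deposited whole-number counts of reads per gene symbol, without normalization; the submitters' processing notes name Trimmomatic 0.36, edgeR and the build Zv9, and the aligner, counter and annotation are not given in the sources used here. All 3 columns were used.

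Counts were normalized by TMM over all rows in edgeR 4.0.16 (R 4.3.3) and scaled to the mean effective library size. The highest and lowest libraries were compared without a pseudocount, and log2 values used a pseudocount of 1. A gene was called past the minimum when every library reached 10 normalized counts, and spread was described for genes with a mean of at least 10. With 1 condition there was no contrast, so no test between groups was made and no p-value is given. Counting intervals are exact 95% binomial intervals for the ratio of reads, and a count of 0 was given a limit of 3 reads; both cover counting error only. Replicates may share technical spread. Depth was 25604897, 21290328 and 18920027 counts in libraries 1, 3 and 6, and 10502351, 9855389 and 12355434 without the row AC024175.4. Counts of each pair differed far beyond sampling noise (chi-square divided by its degrees of freedom, 166 to 416), so none was a repeat deposit.

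The members, arms and gene lists were chosen with earlier results of these data known. Each gene of the set is named with its values, except 2 that enter the counts and sums and are not reported here; of the other pathway genes, the 3 with the smallest and the 3 with the largest ratio between libraries are named, and xpc, ddb2 and aanat2 were named after their values were seen, as were the lens genes. Listed genes were matched by name, then by a synonym in RefSeq (GRCz12tu), which was used for names only, so no coordinates are given. No promoter or protein sequence was used here, and the motif search that had been planned was not run. Scripts were tested on simulated data in which low counts of arm genes were raised and the spread was small. That test does not cover the arm score at the counts and spread of these libraries. Alternatives were DESeq2 1.42.0 size factors, total-count scaling with and without AC024175.4, upper-quartile scaling, TMM on filtered genes, other minimums, pseudocounts and arms, and leaving out each library. Other calculations used Python 3.11.15, numpy 2.4.6, scipy 1.17.1 and pandas 2.3.3.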

Additional observations from a re-analysis of the deposited data

How the results depend on the processing

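No paired analysis was possible because the 3 libraries share 1 condition. The number of clock genes past the minimum was 35 under each scaling, 37 with a minimum of 5 and 31 with a minimum of 50, and leaving out a library gave 36 to 38. The number over 2-fold apart, 22, was from 21 to 26 under the other scalings, 15 with a mean of at least 50 and 23 with no minimum. With 1 library left out it was from 5 (without library 1) to 19 (without library 3), and the median SD was from 0.33 to 0.56, where 2 libraries replace 3. Of all rows with a mean of at least 10 over the 3 libraries, 73.4% were over 2-fold apart. Between libraries 6 and 3 alone 46.4% of these rows were, and between libraries 6 and 1 alone 52.7%. The E-box minus RORE score hardly depended on scaling, since a common factor cancels between the arms. For library 6 minus library 1, at -0.94, it was -1.61 with narrow arms, and, with alternatives chosen after seeing the data, -0.26 without npas2, -0.072 with only arm genes of a mean of at least 200 and reversed to 0.16 without npas2 and clock. At a mean of at least 200 the RORE arm holds nfil3 genes only. For library 3 minus library 1, at -1.24, it was -0.40 without npas2 and clock. With any 1 arm gene left out, it was from -1.63 to -0.74. For library 6 minus library 1 it was then from -1.60 to -0.26. With 1 library left out, the score of the remaining pair was -1.14 for library 3 minus library 1, -0.94 for library 6 minus library 1 and 0.036 for library 6 minus library 3. Of 210 mean counts recomputed with other scalings, 0 shifted beyond 1 SD of the libraries. Each scaling was set to the same mean effective library size, so a mean could move little and this count does not test the scaling. Ratios between libraries did move with scaling, as for per1b from 1.33-fold to 1.84-fold with total-count scaling. With 1 library left out, 11 of the 42 means moved by over 1.5 times. Depth limits npas2, cry4 and arntl1a, each with 1 read in some library, and nampta, with 0 reads in library 3.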
